A study of Homo sapiens with 12 samples.

Results

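The subject here is the transcriptome of HT29 cells at rest: the 3 libraries of 1 group, out of 12 libraries in the whole study. HT29 is an established human line from a colorectal adenocarcinoma. These cells expressed the Cas9 nuclease, carried a non-targeting guide RNA delivered by lentivirus and received only the solvent DMSO for 14 h. The other 9 libraries, which received tunicamycin, a guide against QRICH1 or both, were not used, and no group was compared with another. The label calls the cells wild type, yet they share the nuclease and a guide-carrying viral vector with every other group, and whether the Cas9 line is 1 clone is not given in the sources used here. RNA was read from cells in bulk, so fewer cells of a type and less RNA per cell cannot be told apart.

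An epithelial cell of the large intestine holds its shape with keratins 8 and 18, paired filament proteins of simple epithelia, and adds keratin 20 as it matures. It is joined to its neighbours through EPCAM, E-cadherin and claudins, and faces the gut lumen with a brush border built on villin and ezrin. Tumour cells in culture run glycolysis at a high rate and release lactate, and genes that belong to blood, muscle, nerve or gland are kept silent.

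The 3 libraries held 7529171, 15131238 and 12089615 counts over 20015 genes, almost all of them protein-coding. Levels are given as counts per 1000000 counts of the library (CPM), as mean ± SD over the 3 libraries (n = 3), and they are shares of the measured RNA, not molecules per cell. A gene with no count in 34750024 summed counts may still lie at up to 0.0863 CPM, the worth of 3 counts; the same limit was 0.398, 0.198 and 0.248 CPM in libraries 1 to 3. This limit covers counting error only. Across the 10704 genes with a mean of at least 1 CPM the library pairs had Pearson correlations of 0.980 to 0.987 on log2(CPM + 1), a description over genes that share the same libraries. Over genes with at least 50 counts each pair differed by more than counting noise, with a chi-square of 13.7 to 31.3 per degree of freedom, so no column held the same counts as another within sampling noise. Repeat libraries of 1 RNA would also differ by more than that noise, and the separate origin of the 3 rests on the series' own statement.

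To set the level of a gene beside its sequence, shown are the 250 bases before the RefSeq start (GRCh38.p14) of EEF1A1 and FTL, among the most abundant genes of these cells, and of ALB and SST, the genes of serum albumin and of the hormone somatostatin, without a count in any library. Capitals mark each CG dinucleotide, the site of DNA methylation in mammals. The regions are chr6:73521033-73521282 on the minus strand for EEF1A1, chr19:48965059-48965308 on the plus strand for FTL, chr4:73404037-73404286 on the plus strand for ALB and chr3:187670395-187670644 on the minus strand for SST.
EEF1A1: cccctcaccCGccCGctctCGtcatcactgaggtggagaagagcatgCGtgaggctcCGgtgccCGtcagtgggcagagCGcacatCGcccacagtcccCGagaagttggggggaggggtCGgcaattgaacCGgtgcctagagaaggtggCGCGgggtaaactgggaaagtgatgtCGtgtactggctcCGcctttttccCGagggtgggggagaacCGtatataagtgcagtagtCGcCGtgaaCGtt
FTL: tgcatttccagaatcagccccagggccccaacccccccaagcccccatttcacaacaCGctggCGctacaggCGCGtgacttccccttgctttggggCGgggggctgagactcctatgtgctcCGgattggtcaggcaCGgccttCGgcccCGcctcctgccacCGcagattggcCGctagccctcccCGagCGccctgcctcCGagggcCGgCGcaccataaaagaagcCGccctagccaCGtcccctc
ALB: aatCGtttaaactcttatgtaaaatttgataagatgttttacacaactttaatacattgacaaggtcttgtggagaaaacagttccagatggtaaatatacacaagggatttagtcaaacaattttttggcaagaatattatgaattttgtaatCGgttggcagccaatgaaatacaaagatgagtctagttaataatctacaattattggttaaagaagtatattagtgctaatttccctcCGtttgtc
SST: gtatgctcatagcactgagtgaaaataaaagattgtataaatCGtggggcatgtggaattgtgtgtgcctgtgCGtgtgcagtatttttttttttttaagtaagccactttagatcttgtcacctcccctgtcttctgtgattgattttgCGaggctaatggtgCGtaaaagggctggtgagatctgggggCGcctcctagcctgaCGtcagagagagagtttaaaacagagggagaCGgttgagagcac

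These letters hold 20 CG dinucleotides before EEF1A1 and 18 before FTL, against 3 before ALB and 7 before SST. The same count was made for all 8079 genes whose RefSeq start lay within 100 bases of the start of the principal GENCODE transcript. The median was 4 CG dinucleotides before genes with no count, 10 before genes above 0 and under 1 CPM, 21 at 1 to under 10 CPM, 22 at 10 to under 100 CPM, 23 at 100 to under 1000 CPM and 23.5 before the 38 genes at 1000 CPM or more. The widest step thus lay between genes under and over 1 CPM, with little further rise among the expressed. The windows covered only 38 of the 143 genes at 1000 CPM or more and 1930 of the 4656 genes with no count. The motif TATAAA was searched on the gene's own strand in the last 50 bases before the start. It was in 5.25% of all 8079 windows and in 11.3% of those of genes without a count. Its share was 1.41% at 10 to under 100 CPM, 2.48% at 100 to under 1000 CPM and 18.4% (7 of 38) at 1000 CPM or more. With both strands searched these shares were 5.85%, 12.2%, 1.58%, 2.48% and 21.1% (8 of 38). A match is a string of letters, not a shown binding site, and neither methylation nor initiation was measured in these cells.

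Of the 20015 genes, 4656 (23.3%) had no count in any of the 3 libraries and a further 4655 lay above 0 and under 1 CPM. Higher up, 3661 genes lay at 1 to under 10 CPM, 5704 at 10 to under 100 CPM, 1196 at 100 to under 1000 CPM and 143 at 1000 CPM or more. Those 143 genes, 0.714% of the table, took 48.8% of all counts, while the 9311 genes under 1 CPM took 0.107%. The median gene stood at 1.87 CPM, and 53.5% of genes reached 1 CPM, the threshold used below for the members of each gene list. Of the counts 25% came from 21 genes, 50% from 156 and 90% from 3199.

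**Figure D1:**
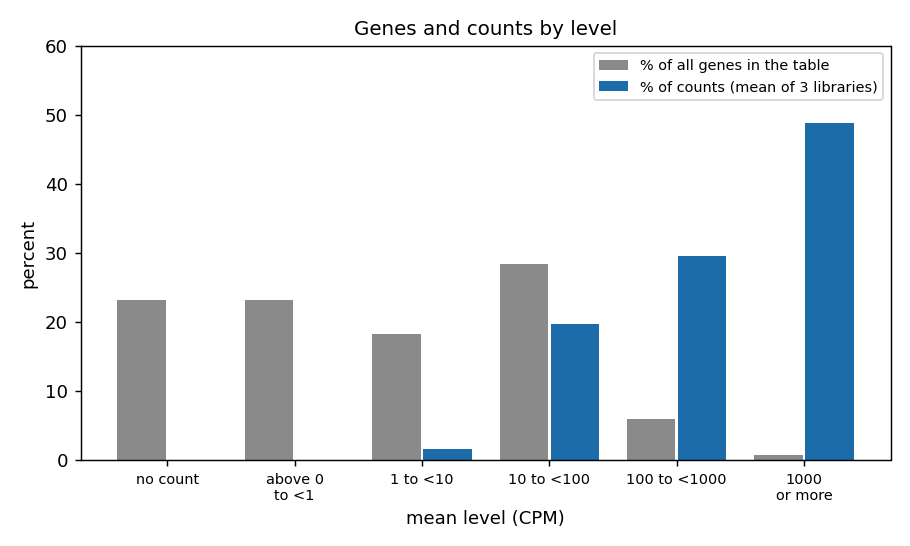
Percent of the 20015 genes (grey bars) and of all counts (blue bars, mean of the 3 libraries) by mean level in CPM. The 143 genes at 1000 CPM or more are 0.714% of genes and hold 48.8% of counts.

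The genes with most counts were those of the cytoskeleton of a simple epithelium. KRT8, keratin 8, at chr12:52897187-52949954 (hg38, minus strand), stood at 58207, 47571 and 41408 CPM in libraries 1 to 3, a mean of 49062 ± 8498 CPM (SD, n = 3). It was the first gene by CPM in each library and took 5.82%, 4.76% and 4.14% of their counts. Its partner KRT18, keratin 18, begins next to it at chr12:52948871-52952901 on the plus strand and stood at 28289 ± 3537 CPM, with 32066, 27745 and 25056 CPM in the 3 libraries. Both were highest in library 1 and lowest in library 3. The genes overlap at their ends, by 7.63% of the exons of KRT8 and 16.3% of those of KRT18, and the library chemistry does not mark strand. ACTB at 23183 ± 2930 CPM and ACTG1 at 10605 ± 971 CPM, the non-muscle actins, were the other members of this group.

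The remaining leaders belonged to protein synthesis, iron storage, chaperoning and glycolysis. EEF1A1, which brings aminoacyl-tRNA to the ribosome, stood at 20069 ± 2285 CPM. FTL, the light chain of the iron store ferritin, stood at 14556 ± 931 CPM. HSPA8, the constitutive HSP70 chaperone, was at 12296 ± 347 CPM and HSP90AB1 at 5116 ± 221 CPM. The glycolytic enzymes ENO1 (11192 ± 1713 CPM), GAPDH (9108 ± 97.9 CPM), PKM (5274 ± 444 CPM) and LDHA (5103 ± 221 CPM) were all among the 30 most abundant. ANXA2, a calcium-dependent membrane-binding protein, was at 6575 ± 206 CPM, the ribosome-bound scaffold RACK1 at 4100 ± 148 CPM and the poly(A)-binding protein PABPC1 at 3573 ± 654 CPM. Of the 30, 12 were ribosomal proteins, led by RPL8 at 7291 ± 609 CPM and RPL4 at 6783 ± 597 CPM, and among the others of that class were RPL3, RPS3, RPL13A, RPS19, RPS16, RPS6, RPL10, RPS4X and RPLP1. The mitochondrial genome gave 3: MT-CO2 at 7943 ± 1378 CPM, MT-CO1 at 5175 ± 997 CPM and MT-CYB at 3561 ± 563 CPM. All 3 were highest in library 3.

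**Figure D2:**
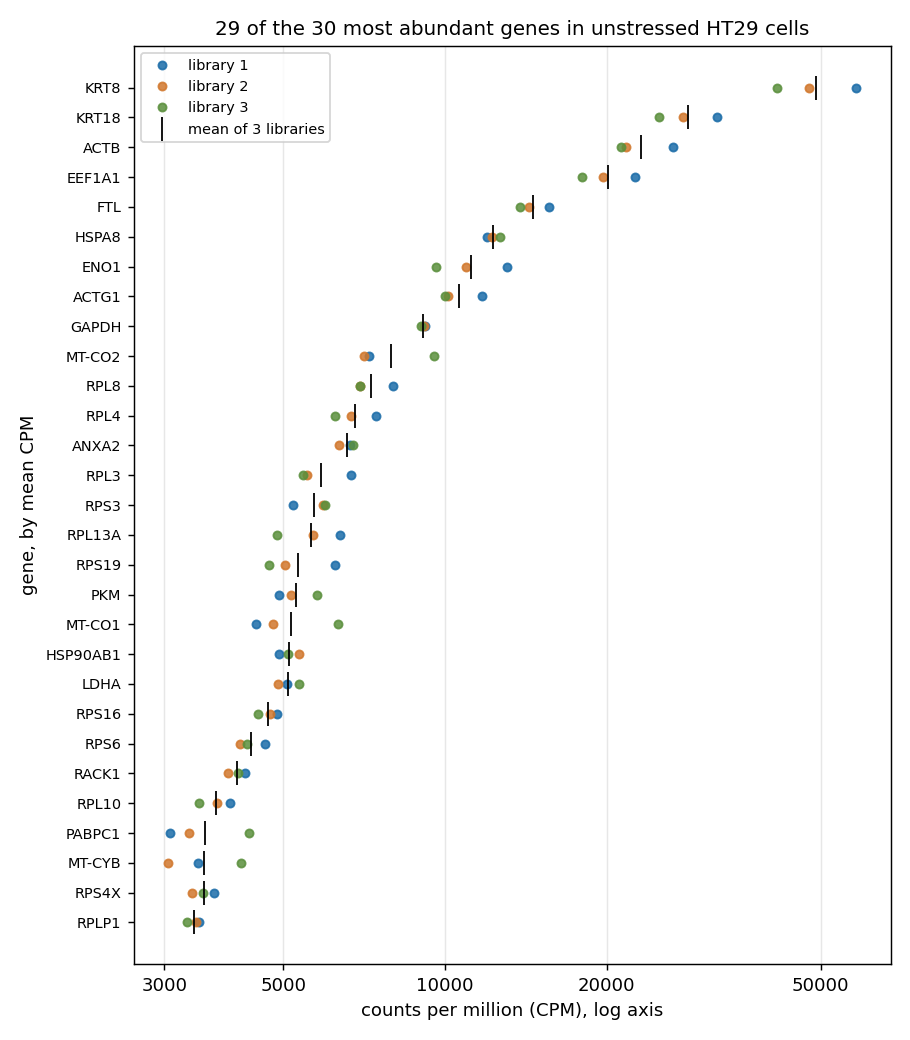
Level of 29 of the 30 most abundant genes in each of the 3 libraries (coloured points) and their mean (black tick), in CPM on a log axis. KRT8 and KRT18 lead in every library, and the values of 1 gene lie close together beside the range between genes.

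A long transcript yields more counts than a short one, so a rank by CPM orders genes by their share of counts. To compare transcripts of different length a length-scaled level was used, counts per kilobase of a gene's merged exons scaled to sum to 1000000 in each library. On this scale FTL came first, at 54425 ± 3881 per 1000000, then MT-CO2 at 38050 ± 6042, KRT18 at 28871 ± 3829, KRT8 at 23422 ± 4221 and ACTB at 21629 ± 2828. TMSB10, a short actin-sequestering peptide, held the sixth rank at 20679 ± 2530 per 1000000, against rank 38 by CPM. The annotated exons of KRT8 sum to 6881 bases, its principal transcript to 2126 bases. With lengths of the principal transcripts KRT8 was first, KRT18 second and FTL in rank 3. The leading genes were thus the same few, but their order depended on the length assumed.

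All 79 cytosolic ribosomal protein genes were at 1 CPM or more, 72 of them at 100 CPM or more, with a median of 966 CPM, and together they took 12.9 ± 0.403% of counts. Their low members are no measure of supply: RPS10 at 2.52 CPM and RPL17 at 1.98 CPM share 39.4% and 35.3% of their exons with readthrough genes, which had no count. The 13 protein-coding genes of the mitochondrial genome took 3.08 ± 0.525% of counts, and 11.4 ± 1.79% of the length-scaled level. The mitochondrial share was 2.77% and 2.79% in libraries 1 and 2 and 3.69% in library 3.

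The labelled cell type was checked on its 3 markers, KRT8, KRT18 and KRT20. KRT20, keratin 20 of the intestinal lining, at chr17:40875941-40885227, stood at 403, 324 and 343 CPM, a mean of 357 ± 41.4 CPM, at rank 361 of all genes by CPM. All 3 markers were thus present in every library, whereas several other genes usual in colon were near or at 0, as given with the intestinal lists. KRT8 and KRT18 mark any simple epithelium, so they do not single out colon, and the identity of the line was not tested beyond these genes; HT29 is the name the labels give it. KRT19, a further simple keratin, stood at 3376 ± 717 CPM and KRT80 at 186 ± 14.0 CPM. KRT7, typical of ducts and lung but not of colon, stood at 1.93 ± 0.528 CPM and KRT23 at 0.939 CPM. Of 21 keratins of stratified epithelia 4 reached 1 CPM: KRT13 at 69.4 ± 2.02, KRT17 at 37.1 ± 3.16, KRT15 at 5.95 ± 1.19 and KRT10 at 3.82 ± 0.480 CPM. The basal keratin KRT5 had no count in any library and its partner KRT14 was at 0.0994 CPM. Hair keratins were at or under 1.15 CPM, and 14 of the 21 had no count.

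The listed genes of epithelial adhesion were present almost without exception: 32 of 33 reached 1 CPM, against 53.5% of all genes, with a median of 58.1 CPM. EPCAM stood at 1608, 1613 and 1660 CPM, a mean of 1627 ± 29 CPM, and the 3 values lay within a few percent of each other. Length-scaled, EPCAM led the list at 2119 ± 16 per 1000000, before the tight-junction protein CLDN4 at 483 and alpha-catenin, CTNNA1, at 427 per 1000000. The claudin panel was shared by CLDN4 (43.8 ± 0.0365% of its length-scaled level), CLDN3 (30.3 ± 1.31%) and CLDN7 (20.3 ± 0.764%). Of the 23 claudins in that panel only 9 reached 1 CPM, and 6 had no count, CLDN8 among them. The adhesion list held none of the claudins under 1 CPM, so its count leans on the choice of members. E-cadherin, CDH1, stood at 159 ± 16.9 CPM and made up 98.8 ± 0.633% of the panel of classical and 7D cadherins. The exception was CDH17, the liver-intestine cadherin, at 0.596 CPM.

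Genes that polarise epithelia or splice their transcripts were all present, 21 of 21 at 1 CPM or more. SPINT2, an inhibitor of surface serine proteases, stood at 2404 ± 722 CPM, SPINT1 at 485 ± 19.9 CPM, the splicing regulator ESRP1 at 135 ± 21.7 CPM and the transcription factor GRHL2 at 100 ± 4.65 CPM. Of 20 mesenchymal genes, in contrast, 5 (25%) reached 1 CPM, against 53.5% of all genes. Vimentin (VIM) and the factors TWIST1, TWIST2 and SNAI2 had no count in any library, nor did the matrix protein SPARC, while ZEB1 stood at 0.155 CPM and N-cadherin, CDH2, at 0.0441 CPM. The high member of that list was S100A4, a calcium-binding protein often read as mesenchymal, at 2479, 2204 and 2026 CPM (2236 ± 228 CPM), followed by the receptor kinase AXL at 31.1 ± 5.03 CPM. Lamin A/C (LMNA) was at 2122 CPM and made up 89.9 ± 2.02% of the filament panel beside keratins, in which VIM and the neurofilament genes NEFL and NEFM were at 0. VIM has 24.4% of its exons inside a non-coding gene, and the part of the counting in its 0 was not tested.

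**Figure D3:**
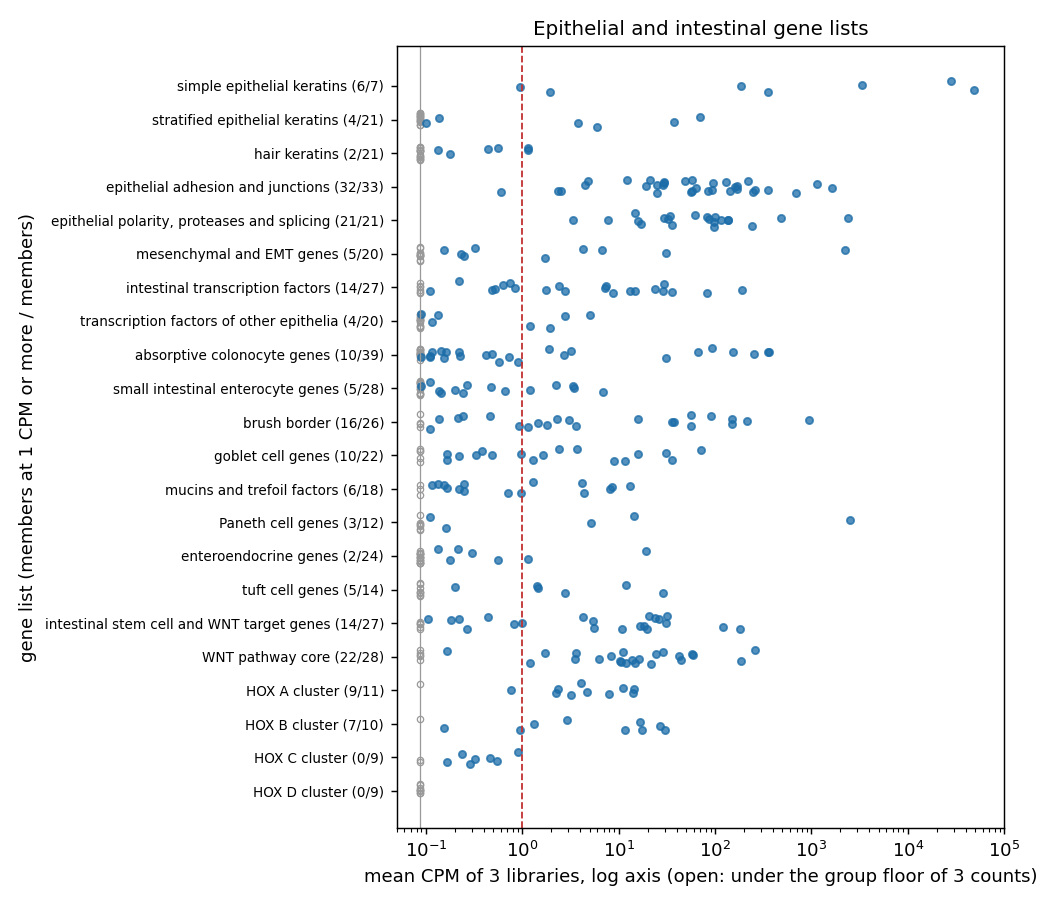
Mean level of every member of 22 epithelial, intestinal, WNT and HOX gene lists, in CPM on a log axis (filled points). Open points lie under the group floor of 0.0863 CPM, and the dashed line is 1 CPM; 32 of 33 adhesion genes lie beyond it, but 10 of 39 colonocyte genes.

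Of 27 transcription factors of the gut lining 14 (51.9%) reached 1 CPM, close to the 53.5% of all genes, with a median of 1.74 CPM. PPARG, the lipid-sensing nuclear receptor, stood at 190 ± 15.5 CPM, ELF3 at 82.6 ± 10.8, SPDEF, a factor of secretory cells, at 35.9 ± 5.23, KLF5 at 29.6 ± 6.08, SOX9 at 23.7 ± 3.28 and HNF4A at 13.2 ± 2.30 CPM. The caudal factors by which colon is usually recognised were not among them. CDX1 had no count in any library, and CDX2 was at 0.266, 1.45 and 0.496 CPM, which is 2, 22 and 6 counts. All 3 libraries thus held few counts of CDX2, and library 2 alone passed 1 CPM. Neither CDX1 nor CDX2 had 25% or more of its exons inside another gene. Of 20 factors of other epithelia 4 reached 1 CPM, with PAX8 at 5.07 ± 1.82 CPM as the most abundant on either scale. Among GATA factors GATA2, best known from blood progenitors, held 91.9 ± 2.22% of the length-scaled level, at 42.5, 71.1 and 82.1 CPM, whereas the gut factors GATA6 and GATA4 stood at 2.42 and 0.0716 CPM and GATA5 had no count.

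Of 39 genes of the mature colonocyte 10 (25.6%) reached 1 CPM, against 53.5% of all genes. Their median was 0.144 CPM, against 1.87 CPM over all genes. Beside KRT20, the water channel AQP3 stood at 365 ± 47.6 CPM, the galectins LGALS4 at 252 ± 18.4 and LGALS3 at 152 ± 19.1 CPM, the adhesion molecule CEACAM1 at 92.8 ± 19.5 CPM, the sodium channel subunit SCNN1A at 66.5 ± 6.89 CPM and the carbonic anhydrase CA12 at 30.9 ± 2.55 CPM. Against these stood the carcinoembryonic antigens CEACAM5, at 1.20, 0.859 and 0.662 CPM, and CEACAM6, at 0.728 CPM. The surface antigen GPA33 was at 0.0663 CPM, the chloride exchanger SLC26A3 at 0.110 CPM and the fatty acid carrier FABP1 at 0.0443 CPM. CEACAM1 made up 94.8 ± 1.64% of its family on the length-scaled level. FABP5, the epidermal form, made up 90.1 ± 2.47% of the fatty acid binding proteins.

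Of 26 brush border genes 16 (61.5%) reached 1 CPM, near the 53.5% of all genes, and their median of 2.04 CPM lay near that of all genes, 1.87 CPM. Ezrin, EZR, which ties actin to the apical membrane, stood at 941 ± 12.8 CPM, its partner NHERF1 at 151 ± 6.52 CPM, EPS8 at 214 ± 14.2 CPM and villin, VIL1, at 91.1 ± 9.72 CPM. The motor MYO1A had no count and the linker CDHR2 stood at 0.0661 CPM. Digestive enzymes of the small intestine were low, 5 of 28 at 1 CPM or more and none above 6.93 CPM, with sucrase-isomaltase, SI, at 0.110 CPM and DPP4 at 3.45 ± 0.891 CPM.

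Lists of secretory gut cells were each represented by some of their genes, in every case by a smaller share than the 53.5% of all genes. Among 22 goblet cell genes 10 (45.5%) reached 1 CPM, led by the disulphide isomerase AGR2 at 71.2 ± 15.3 CPM, while the gel-forming mucin MUC2 stood at 1.30 ± 0.556 CPM and TFF3 at 0.960 CPM. MUC5AC, a mucin of stomach and airway, stood at 8.04 ± 3.42 CPM and MUC16 at 13 ± 1.5 CPM. Of 12 Paneth cell genes 3 reached 1 CPM. Lysozyme, LYZ, stood at 2542, 2497 and 2552 CPM, a mean of 2531 ± 29.3 CPM at rank 47 of all genes, but the defensins DEFA5 and DEFA6 and the lectin REG3A had no count. LYZ shares 34.0% of its exons with a non-coding gene, so some of its reads could belong to that gene. Enteroendocrine genes gave 2 of 24, the factor ISL1 at 19.1 ± 0.807 CPM and ghrelin, GHRL, at 1.15 ± 0.554 CPM, and 1 of 24 without library 1; PAX4, NEUROD1 and INSM1 had no count. Tuft cell genes gave 5 of 14, or 3 without library 2, led by ALOX5 at 28.8 ± 1.05 CPM, with DCLK1 at 0.

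WNT signalling, which maintains the crypt and is switched on in most colorectal tumours, was represented by most of its core genes and a part of its targets. Of 28 core genes 22 reached 1 CPM, with beta-catenin, CTNNB1, at 259 ± 4.89 CPM and the factor TCF7L2 at 29.2 ± 4.23 CPM. Of 27 stem cell and target genes 14 (51.9%, against 53.5% of all genes) did, among them CCND1 at 182 ± 16.1, CD44 at 122 ± 10.9, AXIN2 at 26.0 ± 2.67, RNF43 at 20.5 ± 4.37, LGR5 at 19.7 ± 2.42 and the antagonist DKK1 at 16.7 ± 3.03 CPM. OLFM4, LEF1 and MSI1 had no count and ASCL2 was at 0.221 CPM. MYC stood at 326 ± 22.6 CPM and made up 99.8 ± 0.140% of its family, in which MYCN had no count.

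HOX genes record the position of a tissue along the body axis, and in these cells the 39 measured split by cluster. In cluster A 9 of 11 reached 1 CPM, among them HOXA9 at 14.5 ± 3.44, HOXA10 at 14.1 ± 0.663, HOXA13 at 11.2 ± 2.25, HOXA5 at 7.98 ± 3.13, HOXA3 at 4.09 ± 0.389, HOXA6 at 3.23 ± 0.533, HOXA11 at 2.33 ± 0.883 and HOXA2 at 2.23 ± 0.272 CPM. In cluster B 7 of 10 did: HOXB6 at 30.2 ± 2.34, HOXB9 at 27.1 ± 5.18, HOXB7 at 17.6 ± 0.887, HOXB3 at 16.7 ± 1.07, HOXB5 at 11.8 ± 1.55, HOXB8 at 2.88 ± 1.37 and HOXB13 at 1.32 ± 0.123 CPM. No gene of cluster C reached 1 CPM (1 of 9 without library 1), and all 9 genes of cluster D had no count in any library. Exons of HOXD1, HOXD3 and HOXD4 lie largely inside other genes, but those of HOXD8, HOXD9, HOXD10, HOXD11, HOXD12 and HOXD13 do not.

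Genes of other lineages were searched in 33 lists with 402 distinct genes. Of these 33 (8.21%) reached 1 CPM, against 53.5% of all genes, 207 had no count in any library, and 12 reached 10 CPM. In 13 lists no gene reached 1 CPM: T and NK cells (15 genes), B and plasma cells (11), mast cells (6), erythroid cells (14), megakaryocytes (7), fibroblasts (14), heart (12), melanocytes (7), pancreas (15), pituitary (7), adipocytes (8), eye (13) and placenta (12). The T cell receptor subunits CD3E and CD3G, the beta-globin gene HBB, the collagen gene COL3A1 and the cardiac troponin gene TNNT2 had no count in any library, and the leukocyte antigen PTPRC stood at 0.111 CPM. The collagen genes COL1A1 and COL1A2 stood at 0.127 and 0.0441 CPM. For each gene at 0 the counts allow up to 0.0863 CPM over the group. With 1 library left out, 1 melanocyte gene (without library 1) and 1 pancreas gene (without library 2) reached 1 CPM.

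A further 19 lists had 1 or 2 genes at 1 CPM or more, in each case beside silent companions. Hepatocytes gave SERPINA1, the secreted protease inhibitor, at 132 ± 13.9 CPM, and APOH, a plasma phospholipid-binding protein, at 38.4 ± 3.15 CPM, while ALB, APOA1, APOA2 and AFP had no count. Endothelium gave the junction protein ESAM at 35.9 ± 2.67 CPM, with KDR and CDH5 at 0. Glia gave MBP, whose locus also makes a non-myelin product, at 26.5 ± 1.17 CPM and the folate enzyme ALDH1L1 at 12.7 ± 3.18 CPM, with MAG and OLIG2 at 0. Myeloid cells gave LYZ and CD14 at 2.65 ± 0.262 CPM, with MPO, ELANE and S100A8 at 0. Leukocyte factors gave CORO1A at 14.5 ± 3.26 and RUNX1 at 7.28 ± 0.998 CPM, with IKZF1 and TAL1 at 0. Bone gave RUNX2 at 19.8 ± 4.30 and COL10A1 at 1.26 ± 0.183 CPM, with SP7 and IBSP at 0.

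Neurons gave GAD1, which makes GABA, at 6.35 ± 1.83 CPM and TH, the entry enzyme of catecholamine synthesis, at 3 ± 0.773 CPM, with SNAP25, SYN1 and STMN2 at 0. Prostate gave 2 of 7, among them the transporter SLC45A3 at 16.9 ± 4.83 CPM, with FOLH1 at 0, and 1 of 7 without library 1. Cancer-testis antigens gave 1 of 24, LAGE3 at 13.3 ± 1.83 CPM, a gene also active in ordinary tissue, and 19 had no count. The female tract gave MUC16 and GATA3 (1.92 ± 0.652 CPM), stomach gave MUC5AC and TFF2 (4.35 ± 1.41 CPM), kidney gave PAX8 and AQP1 (1.25 ± 0.219 CPM), thyroid gave PAX8 and epidermis gave KRT10. Lung gave SFTPA2 at 1.28 ± 0.701 and AGER at 1 ± 0.280 CPM, of which 1 was left without library 1 or without library 2, steroidogenic cells gave CYP19A1 at 2.58 ± 0.458 and HSD3B1 at 1.84 ± 1.35 CPM, and skeletal muscle gave NEB at 3.09 ± 0.844 CPM with MYOD1 and MYOG at 0. Germ cells gave ZP3 at 2.62 ± 0.562 and pluripotency gave TDGF1 at 1.29 ± 0.109 CPM, with SOX2 at 0. Smooth muscle alone gave 3 of its 8 genes, TAGLN at 13.9 ± 0.543, MYH11 at 3.34 ± 0.488 and ACTA2 at 1.23 ± 0.395 CPM, with calponin, CNN1, at 0.

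**Figure D4:**
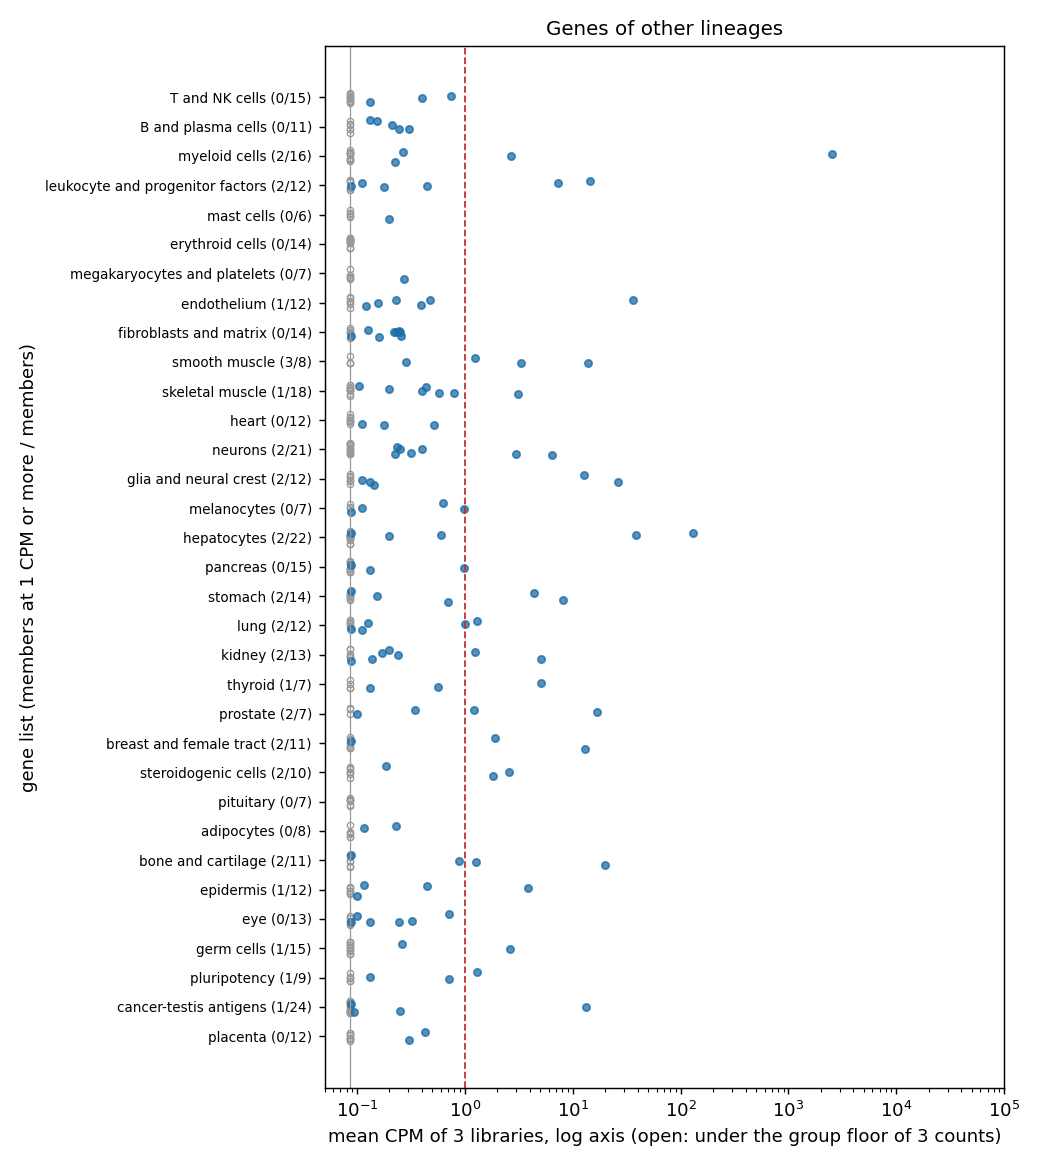
Mean level of every member of 33 lists of genes of other lineages, in CPM on a log axis; open points lie under the group floor of 0.0863 CPM and the dashed line is 1 CPM. The point far to the right in the myeloid row is LYZ, at 2531 CPM.

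Some large families with narrow tissue use were mostly without counts. Of 381 olfactory receptor genes 1 reached 1 CPM, OR10A2 at 1.05 CPM, and 301 had no count. None of 94 keratin-associated proteins of hair, 39 beta-defensins, 13 interferon alpha genes or 30 cornified envelope genes reached 1 CPM. Over all genes 23.3% had no count and 53.5% reached 1 CPM. Other families were low but less often at 0. Without a count were 10 of 24 taste receptors (41.7%), 24 of 53 clustered protocadherins (45.3%) and 35 of 97 potassium channel genes (36.1%). Collagens were at 0 less often than all genes, in 7 of 44 (15.9%). In this order of families 1, 2, 12 and 6 genes reached 1 CPM. Families of general machinery lay at the other end: 75 of 78 mitochondrial ribosomal proteins, 44 of 48 NDUF genes of complex I and assembly, 47 of 50 PSM genes of the proteasome and 50 of 56 translation initiation factors reached 1 CPM. Replication-dependent histone genes, whose transcripts mostly carry no poly(A) tail, gave 14 of 66, and zinc finger genes named ZNF gave 348 of 519 at a median of 3.26 CPM.

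Transcripts for the breakdown of glucose to lactate were present at every step. Of the glucose transporters SLC2A1 (GLUT1) was the most abundant, at 417, 459 and 458 CPM, a mean of 445 ± 23.9 CPM, while the next by length-scaled level, SLC2A6, stood at 11.7 ± 1.43 CPM and the GLUT2, GLUT3 and GLUT4 genes SLC2A2, SLC2A3 and SLC2A4 at 0.0718, 0.0718 and 0.177 CPM. All 17 glycolytic genes reached 1 CPM and 12 reached 100 CPM, with a median of 187 CPM. By length-scaled level GAPDH led at 10029 ± 239 per 1000000, then ENO1 at 6968 ± 1117, TPI1 at 3869, LDHA at 2696 ± 78.4, PKM at 2018 ± 146 and PGK1 at 1311 per 1000000, whereas the mutase PGAM1 stood at 200 per 1000000. GAPDH differed little between libraries (9190, 9135 and 9000 CPM), whereas ENO1 stood at 13027, 10914 and 9635 CPM, highest in library 1 like the keratins.

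At most steps of glycolysis 1 paralogue held most of the transcripts. Of the length-scaled level of each panel, ENO1 held 99.8 ± 0.00573%, LDHA 95.7 ± 0.649%, hexokinase HK1 83.1 ± 0.584% before HK2 with 10.4 ± 2%, and the platelet-type phosphofructokinase PFKP 68.3 ± 2.25% before PFKL with 20.5 ± 0.329%. LDHB, at 110 CPM, has 33.4% of its exons inside another coding gene, which had no count. Its level may be understated, and the share of LDHA carries that limit. PKLR, the liver pyruvate kinase, held 0.00129% of its panel, and PGK2 and PGAM2 of testis and muscle had no count. At least 25% of the exons of PGAM2 lie inside another gene, so its 0 could not be judged. Lactate leaves through monocarboxylate transporters, of which SLC16A1 held 86.2 ± 3.84% and SLC16A3 12.5 ± 3.73%. Aldolase could not be judged: ALDOA stood at only 20 CPM, but 53.5% of its exons lie inside other genes, and its main overlapping partner in the table had 0.590 CPM.

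**Figure D5:**
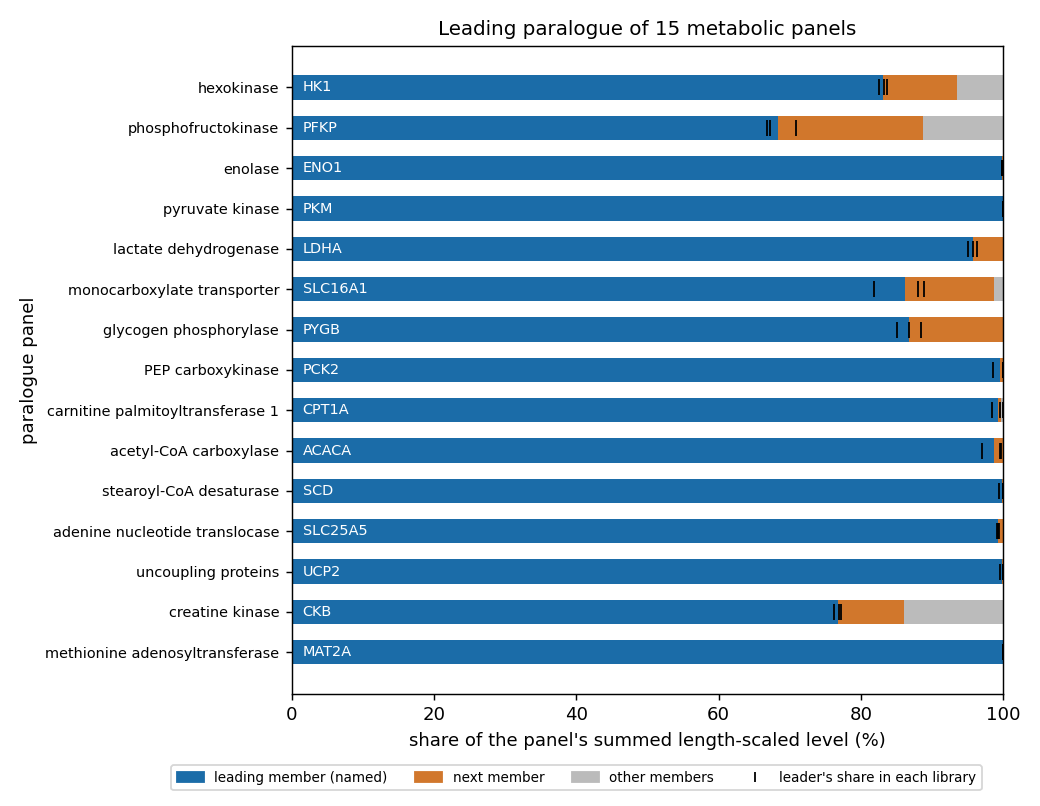
Share of each panel's summed length-scaled level (percent) held by its leading member (blue, named), the next (orange) and all others (grey) in 15 panels of metabolic paralogues, as means of the 3 libraries; black ticks give the leader's share in each library. The leader held at least 68.3% in each of these 15 panels.

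Glycogen and the reverse path were represented at fewer steps. The brain form of glycogen phosphorylase, PYGB, stood at 587 ± 43.2 CPM and held 86.7 ± 1.71% of its panel, and FBP1 stood at 39.9 ± 3.22 CPM. Mitochondrial PCK2, at 23.0 ± 2.22 CPM, held 99.5% of its pair, and the glucose-6-phosphatase gene G6PC1 of liver and kidney had no count. In the pentose phosphate pathway 7 of 9 genes reached 1 CPM, with TALDO1 at 835 ± 96.2, TKT at 1353 ± 211 and PGD at 285 ± 25.7 CPM.

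Transcripts for mitochondrial oxidation were present at nearly every step. Of 30 genes of pyruvate entry and the TCA cycle 29 reached 1 CPM, the exception being the testis gene PDHA2 without a count, and MDH2 led by length-scaled level at 495 ± 65.1 CPM. Fatty acid oxidation gave 15 of 18, with HADHA at 377 ± 42.0 and ECHS1 at 420 ± 83.7 CPM, and CPT1A held 99.3 ± 0.794% of the carnitine palmitoyltransferase 1 panel. UCP2 at 261 ± 32.7 CPM held 99.8% of the uncoupling proteins. Butyrate is the main fuel of the normal colonocyte. Its apical carrier SLC5A8 had no count, and SLC16A1 stood at 113 ± 11.9 CPM.

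Synthetic pathways were broadly present. All 25 genes of nucleotide synthesis reached 1 CPM, 13 of them 100 CPM, led by length-scaled level by thymidine kinase, TK1, at 510 ± 40.2 CPM, and ribonucleotide reductase RRM2 at 656 ± 60.8 CPM. Cholesterol synthesis gave 23 of 24, with SQLE at 336 ± 15.6 and FDFT1 at 320 ± 23.8 CPM. Fatty acid synthesis gave 19 of 22, with ACLY at 252 ± 17.4 and SCD at 213 ± 19.6 CPM, the latter holding 99.8% of the desaturase pair with SCD5. The elongase ELOVL5 is listed at 0 in each library; how reads were assigned to genes is not known, and the part of the counting in this 0 was not tested.

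The glutamine carrier SLC1A5 stood at 1118 ± 11.4 CPM. Serine and one-carbon genes gave 13 of 17, with the methionine cycle enzymes AHCY at 775 ± 47.4 and MAT2A at 541 ± 43.8 CPM, and the liver form MAT1A at 0. The urea cycle was incomplete: CPS1 and OTC, its mitochondrial entry steps, had no count, ASS1 stood at 3.91 ± 2.80 CPM and ASL at 42.0 ± 3.10 CPM. Asparagine synthetase, ASNS, stood at 0.160 CPM with 44.6% of its exons inside a non-coding gene, so its level could not be judged.

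Detoxifying genes included some of the most abundant enzymes. ALDH1A1, a retinaldehyde dehydrogenase, stood at 1534, 1548 and 1541 CPM, a mean of 1541 ± 7.05 CPM, among the 10 genes with the least spread at 50 CPM or more. GSTP1 stood at 1870 ± 95.9 CPM, the quinone reductase NQO1 at 969 ± 104 CPM, and the peroxide-removing PRDX1 at 1142 ± 47.1 and GPX2, the gut form of glutathione peroxidase, at 721 ± 67.3 CPM. Of 42 phase I genes 22 (52.4%, against 53.5% of all genes) reached 1 CPM, with CYP3A5 at 101 ± 9.12 CPM and the liver genes CYP2E1, CYP1A2 and CYP2C8 at 0.0661, 0.0276 and 0.0443 CPM. The glutathione transferases GSTA1 and GSTA2 had no count, and the efflux pump ABCC3 stood at 429 ± 35.1 CPM while ABCB1 was at 0.0443 CPM. FTH1, the heavy partner of FTL, stood at 756 ± 260 CPM with 62.4% of its exons inside other genes, so the 2 ferritin chains were not compared.

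Cell division genes were all present, 31 of 31 at 1 CPM or more with a median of 182 CPM. The replication clamp PCNA stood at 479 ± 19.7, the helicase subunit MCM7 at 1348 ± 190, cyclin B1, CCNB1, at 527 ± 20.4 and CDC20 at 464 ± 18.0 CPM. Among D-type cyclins CCND1 held 63.4 ± 3.31% and CCND3 36.6 ± 3.31% of the length-scaled level, and CCND2 had no count; with principal transcript lengths the order turned, CCND3 holding 58.8%. Of 29 colorectal cancer genes 27 reached 1 CPM, with MET at 135 ± 19.6 and EGFR at 102 ± 4.45 CPM. ERBB3 held 53.9 ± 1.96% of the ERBB receptors, EGFR 33.1 ± 1.49% and ERBB2 13 ± 0.965%. Their ligands were led by AREG with 43.4 ± 2.97%, TGFA with 34.1 ± 5.24% and EREG with 14.6 ± 3.64%; with no length scaling AREG held 20.5% and TGFA led with 48.5%.

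Chaperones and folding enzymes of the endoplasmic reticulum, where tunicamycin acts in the study's other groups, were all present in the solvent-treated cells, at widely different levels. All 20 listed reached 1 CPM and 9 reached 100 CPM, with a median of 67.2 CPM. Among the high members HSPA5 (BiP) stood at 1171, 1051 and 1194 CPM, a mean of 1139 ± 76.9 CPM, P4HB at 1135 ± 236, CANX at 1155 ± 305, PDIA3 at 992 ± 75.1 and CALR at 665 ± 9.93 CPM. Among the transcription factors of the unfolded protein response ATF4 led by length-scaled level, at 299 per 1000000, while XBP1 had 43.8 and ATF6 14.8 per 1000000. DDIT3 (CHOP) stood at 3.44 ± 0.231 CPM. QRICH1, the gene the study's guide was made against, stood at 22.2, 33.8 and 38.9 CPM in these cells with the non-targeting guide, a mean of 31.6 ± 8.56 CPM, lowest in library 1.

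Antigen presentation genes of class I were present and those of class II mostly not. B2M stood at 606 ± 155 CPM and HLA-B at 12.9 ± 2.12 CPM, with the caution that reads of near-identical class I genes could be split between them. Of 13 class II genes 2 reached 1 CPM, CD74 at 2.89 ± 0.906 and HLA-DMA at 2.20 ± 0.604 CPM, while HLA-DRA and HLA-DRB1 had no count and the regulator CIITA stood at 0.617 CPM. Of 30 innate sensors 13 (43.3%, against 53.5% of all genes) reached 1 CPM, with MYD88 at 61.7 ± 7.52 and GSDMD at 53.4 ± 5.61 CPM, and NLRP3 at 0.144 CPM.

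Over the paralogue panels chosen here the share of the leading member differed widely. In 24 of 53 panels the leading member held over 90% of the length-scaled level, in 22 it held 50% to 90%, and in 7 it held under 50%. Among the 24 are the panels of PGAM2, COX6A2 and SLC25A6, whose 0 carries a limit of overlap or counting. The leaders' shares there may be overstated. Some tissue-specific subunits of cytochrome c oxidase were near or at 0 (COX6A2 and COX8C had no count, COX4I2 held 0.0373% of its pair). At least 25% of the exons of COX6A2 lie inside another gene, so its 0 could not be judged. ACTB (65.0 ± 0.752% of actins), MYH9 (85.9 ± 0.890% of myosin heavy chains), TPM3 (76.7 ± 0.345% of tropomyosins) and ATP2A2 (86.1 ± 3.86% of SERCA pumps) led theirs. SLC25A5 held 99.2 ± 0.148% of the adenine nucleotide translocases, in which SLC25A6, a gene repeated on the X and Y chromosomes, is listed at 0, with the same limit as for ELOVL5.

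Between the 3 libraries most genes varied little. Among 2638 genes at 50 CPM or more the median coefficient of variation (CV, SD over mean) was 0.0938, and in 90.9% of them the highest library was under 1.5 times the lowest. In 71 genes the CV exceeded 0.3. In 62 of these library 1, the shallowest, was the lowest, and in 60 library 3 was the highest. COTL1, an actin-binding protein, had the widest spread, at 92.0, 202 and 433 CPM. The 9 that followed were JPT2 (258, 98.4 and 97.7 CPM), TOMM40, a mitochondrial import pore, (38.4, 62.1 and 116 CPM), LIN7C, FAM91A1, ISOC2, the sheddase ADAM10 (55.1, 128 and 160 CPM), FAR1, the mRNA cleavage factor NUDT21 (55.7, 125 and 160 CPM) and CLIC4. JPT2 and ISOC2 were highest in library 1 and the other 8 highest in library 3. At the other end SPG21 stood at 219, 219 and 218 CPM.

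Low values of genes that overlap others need care. Of 572 genes with 80% or more of their exons inside those of other coding genes, 487 (85.1%) had no count and 1.22% reached 1 CPM, whereas of 14417 genes with no such overlap 24.9% had no count and 51.1% reached 1 CPM. At 50% to under 80% these shares were 33.3% and 26.7%. At 25% to under 50% they were 18.6% and 51.8%, so genes with this lesser overlap were not low as a set. Sterol demethylase, CYP51A1, at 1.37 CPM and sulfiredoxin, SRXN1, at 0 had 83.2% and 85% of their exons inside other genes, and their readthrough partners were at 0 as well. Among all 9311 genes under 1 CPM, 1454 (15.6%) shared 25% or more of their exons with another gene. At any level, 17818 of the 19972 genes matched to GENCODE shared under 25%. How many of the low values come from such sharing was not tested.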

How the data were processed

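The authors deposited 1 table of raw read counts per gene for all 12 samples, whole numbers without normalisation; only the 3 WT DMSO columns were used. RNA was copied by a modified Smart-seq2 protocol and tagmented with Nextera XT, per the labels' protocols, a chemistry that marks no strand and adds no molecular identifiers. Trimmomatic, STAR, DESeq2 and build hg38 are named, without roles, per the submitters' processing notes. No source used here names the counting tool or its annotation. Of the 20015 genes, 19972 matched GENCODE release 29, which gave positions, exon lengths and the share of exons inside other genes; promoter sequences are RefSeq's (GRCh38.p14), with 11334 genes matched and 8079 used.

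Levels are plain CPM, as mean and SD of 3 libraries, which the series calls biological replicates. The length-scaled level divides counts by merged exon length and rescales to 1000000. No groups were compared or tested; library pairs were checked for repeated columns by chi-square over genes with at least 50 counts. Alternatives used TMM (edgeR 4.0.16) and median-of-ratios scaling (DESeq2 1.42.0) in R 4.3.3; the rest was done in Python 3.11.15, and the summaries were tested on simulated data. Gene lists (135, with 1600 genes, 2 without an entry) and the part of the transcriptome described were chosen with earlier results of these data known. Named are the 30 most abundant genes, QRICH1, up to 6 leading and up to 6 defining low members of a list, every lineage gene at 1 CPM or more with some of its silent companions, leaders of panels, HOX genes at 1 CPM or more and the 10 genes of widest spread; some further genes of known role were chosen after their values were seen. Some genes that this rule would name are not reported here.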

Additional observations from a re-analysis of the deposited data

How the results depend on the processing

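No groups were compared, and the chi-square between libraries only checked for repeated columns. No paired analysis was possible because only 1 group is described. The counts of genes with no count, at 1, 100 and 1000 CPM or more, of genes that hold 50% of counts, of listed genes and of lineage genes stayed within 1.5 times the value given under TMM and median-of-ratios scaling, equal depth, medians (not run for genes with no count), each library left out and, where it applied, thresholds of 0.5 and 2 CPM and a length-scaled level of 1 per 1000000. Neither scaling can change the number of genes with no count, so they were no check of it. Lineage genes at 1 CPM or more numbered 46 at 0.5 CPM and 24 at 2 CPM. Of 656 counts of single lists under an alternative 35, from 20 lists, moved by over 1.5 times, none from a list with more than 5 genes at 1 CPM. Of 318 panel shares 73 moved by more than the SD of the 3 libraries, all under another length or none. Leaving out 1 library cannot shift a mean of 3 by more than their SD. By this rule those settings were thus no check of the panel shares.

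On the length-scaled level KRT8 took 2.34% in place of 4.91%, the 10 leading genes 23.2% in place of 18.6%, ribosomal protein genes 14.7% and mitochondrially encoded genes 11.4%. The share of genes with a CV over 0.3 was 2.69%, but 5.86% from 10 CPM up, and 1.75% under TMM and likewise 1.75% under median-of-ratios scaling, and 7 of the 10 genes of widest spread were the same under either scaling. The leading member changed in 2 of 53 panels with the longest transcript and in the same 2 with the principal transcript, an alternative chosen after seeing the data: in 1 of them CCND3 (55.4% and 58.8%) passed CCND1. With no length scaling it changed in 5 panels, the ERBB ligands among them, where TGFA (48.5%) passed AREG (20.5%), and without library 3 SOX9 (45.4%) passed SOX4 (43.3%). Limited to genes with under 25% shared exons, also chosen after seeing the data, 56.1% of genes reached 1 CPM. Under 1 CPM the median CV was 1.15, so values there are given without an order.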
